A study of Drosophila melanogaster with 26 samples.

Results

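The transcripts described here are 31 of the 16623 transcript rows on a custom Drosophila array, and they were chosen because they were abundant in early wild-type primordial germ cells (PGCs) and much less abundant in early PGCs from smaug mutant mothers. A row was taken when its mean log2 signal in wild-type PGCs at 1-3 h was 10 or more, when the mutant mean at that age was lower by 2 or more log2 units, and when the wild-type PGC mean was above that of somatic cells of the same age. The members were thus selected on the measured signals of the 3 groups at 1-3 h, and the differences at 1-3 h are given as a description. The limma count for that contrast is given once, for completeness, and supports nothing. The 31 rows belong to 29 genes, because RapGAP1 and Mnt have 2 rows each. A further 34 rows met the first 2 conditions but were at least as high in somatic cells, and 3690 rows were abundant and above somatic cells without being lowered; the latter are called the comparison rows.

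The study hybridised RNA from 26 sorted samples in 7 groups. Of these, 12 were wild-type PGCs, 4 for each of the collections at 1-3 h, 3-5 h and 5-7 h. PGCs of embryos from smaug mothers gave 3, 3 and 4 samples at those ages, and 4 samples held GFP-negative somatic cells of wild-type embryos at 1-3 h. The wild-type stock was w1118, VASA-GFP/CyO; PrDr/TM3,Sb. The mutant mothers were smaug hemizygotes made with smg1 and the deficiency Df(3L)Scf-R6, and the VASA-GFP transgene was in both genotypes, as it marked the cells for flow sorting. The genotype is that of the mother, so the embryos themselves could carry other alleles. The methods name at least 3 biological replicates for each age and genotype, and also mention technical replicates. The p-values below set a difference against the spread between the sorted samples of a group. In bulk RNA of this kind, fewer cells of a type and less RNA per cell cannot be told apart.

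Smaug is an RNA-binding protein of the early embryo that recruits the deadenylation machinery to maternal mRNAs and represses their translation. Its best known task is to clear maternal mRNAs during the maternal-to-zygotic transition, and in mutant embryos both this clearance and the onset of zygotic transcription fail in large part. PGCs form at the posterior pole around germ plasm inherited from the mother, and they keep many maternal mRNAs and delay their own transcription while the soma starts its own.

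The signals are RMA-normalized intensities, given here as log2 values, on which the group means of all 16623 rows lay between 8.20 and 8.24. One unit is a 2-fold difference, and a level compares samples of the same row and not one row with another. Of the 4 wild-type samples at 5-7 h, replicates 3 and 4 stood apart: their Spearman correlation with replicates 1 and 2 was 0.868 to 0.895, against 0.974 between replicates 1 and 2. Between replicates 3 and 4 it was 0.913, so these 2 also differed from each other. Somatic marker transcripts (7 with a named row that is not a member, of 20 listed: sna, Cg25C, Cad74A, jbug, hkb, zen and en) had medians of 8.14 and 7.64 in the first 2 replicates, against 12.95 and 12.50 in the 2 that stood apart. The median of the germ cell markers was lower in those 2 (10.67 and 11.37 against 12.61 and 12.66). Counts of calls and of separated samples that rest on this group are given with and without them. Germ cell markers (8 of 9 listed, vas, nos, pgc, gcl, osk, aub, piwi and orb) were higher in PGCs than in somatic cells, with a median of 13.53 to 13.80 in wild-type PGCs at 1-3 h against 10.75 to 10.85 in somatic cells. The labels give Cy5 as the dye of every group but the mutant PGCs at 3-5 h and the somatic cells, which they give as Cy3, whereas the methods name Cy3 for wild type and Cy5 for the mutant. Dye and group cannot be told apart in comparisons that involve those groups.

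The members were not, as a set, known germ cell genes. None of the 8 germ cell markers was among them, while tll, one of the somatic markers, was. With 31 members among 5395 named rows, so few markers could all be missed. All 31 were above somatic cells by the rule, but the difference of means ran from 0.23 for eIF4H1, a translation initiation factor of the eIF4H type, to 6.00 for RapGAP1, a GTPase-activating protein for Rap. The median difference was 1.40, with 12 members at 2 or more and 9 under 1, and in 22 members the 4 PGC samples were all above the 4 somatic samples. Over all rows 28.9% were separated in that way. The name germline transcripts thus fits the members unevenly: RapGAP1, dpr6, CG10962, CG17283 and Mnt RB were at least 8-fold higher in PGCs than in somatic cells, whereas ana, CG4408, nAChRalpha3, ms(3)76Ba, eIF4H1, mim, CG31522, tll and fus were within a log2 unit of them.

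In the mutant PGCs at 1-3 h 27 of the 31 members had a mean below that of wild-type somatic cells. The 4 exceptions, which were still above the somatic mean, were dpr6, both RapGAP1 rows and CG10962. These signals are among those the rule used. The same mutant samples had less signal of the somatic markers, sna excepted, than wild-type PGCs (median over the 7 markers 6.05 to 6.20 against 8.22 to 9.14, log2 of their summed signal 10.93 to 11.97 against 12.10 to 12.52). They had more of the germ cell markers (median 14.36 to 14.52 against 13.53 to 13.80), except gcl (means of 14.58 against 14.87). Cad74A and jbug were near the level of the array controls in these mutant samples, at means of 4.76 and 4.75. The array's GFP row was lower in the mutant samples too (10.81 to 11.28 against 12.39 to 13.02) and did not separate somatic cells (12.49 to 13.02) from wild-type PGCs. The part of these shifts in the members' differences was not tested.

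**Figure D1:**
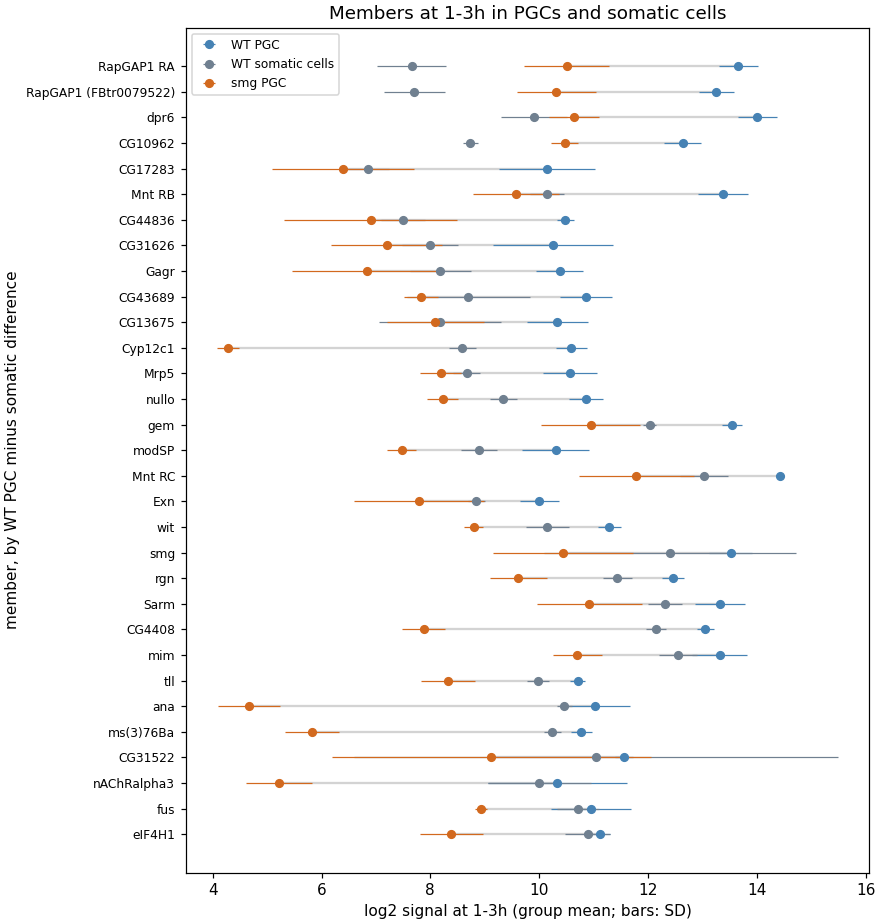
Mean log2 signal (x axis) of each of the 31 members (y axis, ordered by the wild-type PGC minus somatic difference) at 1-3 h, with bars of 1 SD, in wild-type PGCs (n = 4), wild-type somatic cells (n = 4) and smg PGCs (n = 3). The wild-type PGC mean lies 6.00 log2 units above the somatic mean for RapGAP1 RA at the top and 0.23 for eIF4H1 at the bottom, and the mutant mean is below the somatic mean in 27 rows.

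One of 3 members whose mutant mean was no higher than the array's own controls at 1-3 h was ana (anachronism), which encodes a secreted glycoprotein known from glial cells of the larval brain, where it holds neuroblasts in check. Its log2 signal was 11.87, 10.37, 11.11 and 10.73 in the wild-type PGC samples at 1-3 h and 4.10, 4.64 and 5.24 in the mutant ones. The somatic samples lay between 10.27 and 10.60, so both wild-type cell types had the transcript at a like level and the mutant samples lay apart from both. The measured means were 11.02 and 4.66. Control level is taken here as the highest upper quartile of the 20 control rows in a group, which was 5.25, so the signal was at least 54.5-fold lower and the size beyond that was not measured.

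Cyp12c1, a cytochrome P450, was another. Wild-type PGCs gave 10.25, 10.93, 10.53 and 10.65 and mutant PGCs 4.08, 4.27 and 4.49, at least 40.5-fold lower, with somatic samples between 8.31 and 8.91. The third was nAChRalpha3, a subunit of the nicotinic acetylcholine receptor, at least 33.8-fold lower. For nAChRalpha3 the wild-type PGC samples gave 11.01, 10.94, 10.97 and 8.41 and the mutant ones 4.62, 5.20 and 5.84, so one wild-type sample was more than 2 units below its fellows and still above every mutant sample.

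CG4408 was strongly lowered at a mutant signal above the controls. Its wild-type PGC samples lay at 12.83, 13.06, 13.17 and 13.14, its somatic samples between 11.95 and 12.33 and its mutant samples at 7.51, 8.29 and 7.83, which made a difference of -5.18. The male sterility locus ms(3)76Ba gave 10.93, 10.57, 10.66 and 10.94 in wild-type PGCs and 5.42, 5.67 and 6.39 in mutant PGCs, a difference of -4.95. In both, as in ana, somatic cells resembled wild-type PGCs far more than mutant PGCs did.

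A second kind of member was well above somatic cells in wild-type PGCs, and its mutant signal stayed well above that of the array controls. RapGAP1 RA gave 13.34, 13.94, 13.99 and 13.38 in wild-type PGCs, 11.14, 9.63 and 10.74 in mutant PGCs, and its somatic samples lay between 7.02 and 8.51. The other RapGAP1 row (FBtr0079522) gave 13.00, 13.40, 13.65 and 12.98 against 11.00, 9.55 and 10.40. Their differences, -3.16 and -2.94, were close to each other, and the 2 rows may share probe sequence. The study's lists give both rows under CG13790, and the letters RA are those of CG13790-RA. The cell surface protein dpr6, of the immunoglobulin superfamily, was lowered by a like amount, from 13.52, 14.02, 14.34 and 14.17 to 10.97, 10.12 and 10.84. Mnt RB, one of 2 transcripts of the repressor that opposes Myc, went from 12.69, 13.65, 13.67 and 13.48 to 10.45, 8.92 and 9.36, against 9.87 to 10.59 in somatic cells. The paper's fluorescence in situ hybridization instead shows mnt at high levels in the PGCs of both genotypes at 2 h. The images and the array thus differ for mnt in early mutant PGCs, and the reason was not tested.

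Among the transcription factors and signalling genes, gem (gemini, of the CP2 family) had a mean of 13.54 ± 0.19 (SD, n = 4) in wild-type PGCs and 10.94 ± 0.92 (n = 3) in mutant PGCs, and tll, the nuclear receptor of the embryonic termini, 10.70 ± 0.14 and 8.33 ± 0.50. The type II BMP receptor wit had 11.29 ± 0.21 and 8.79 ± 0.17. For mim, an I-BAR protein that shapes membranes, the means were 13.32 ± 0.51 and 10.70 ± 0.46, and for Sarm, a TIR-domain protein of axon degeneration, 13.32 ± 0.46 and 10.92 ± 0.96. The protease modSP, which acts upstream of Toll in immunity, the cellularization gene nullo and eIF4H1 differed by -2.83, -2.64 and -2.73. The remaining members, CG17283, CG44836, Gagr (derived from a retrotransposon gag gene), CG31626, CG43689, rgn, Mnt RC, CG31522, a fatty acid elongase, Mrp5, an ABC transporter, CG13675, Exn, CG10962 and fus, a splicing regulator, lay between -3.75 and -2.02.

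**Figure D2:**
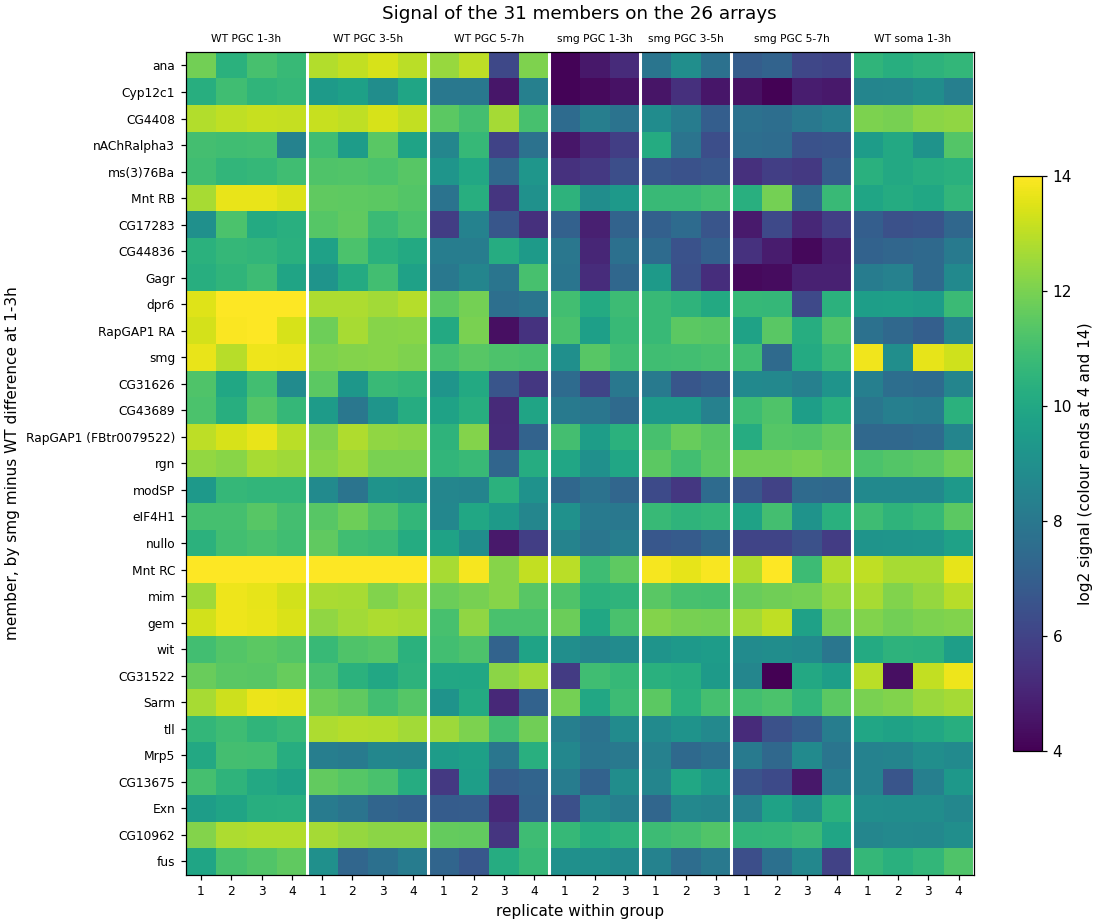
Log2 signal (colour, from 4 to 14) of the 31 members (rows, ordered by the smg minus wild-type difference at 1-3 h) in the 26 samples (columns, by group and replicate number). In the 3 mutant samples of 1-3 h ana and Cyp12c1 lie at 5.24 or less, and replicate 3 of the wild-type 5-7 h PGCs is dark for many members that replicates 1 and 2 still show.

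Over the 31 members the median difference at 1-3 h was -2.85, with 14 members at -3 or less and 4 at -5 or less. It was -0.08 over the comparison rows and -0.01 over all rows. In limma 30 of the 31 passed as lower (adjusted p of 0.05 or less by Benjamini-Hochberg and 2-fold or more), and none as higher, where 6.00% and 7.46% of all rows did, but this is the contrast of the rule and the count supports nothing. The members just inside the limit of -2 were Exn (-2.20), CG10962 (-2.18) and fus (-2.02), and the rows just outside were ca (-1.95), an unnamed row (FBtr0078684, -1.92) and CG13947 (-1.92). On the side of the level, Exn was just inside at a wild-type mean of 10.00 and CG4009 just outside at 9.87.

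The smg gene itself was both the mutated gene and a member, through its RB row. That row gave 13.68, 12.93, 13.77 and 13.71 in wild-type PGCs at 1-3 h and 8.97, 11.40 and 10.92 in mutant PGCs, so every mutant sample was lower. At 3-5 h wild type gave 12.02, 12.16, 12.19 and 12.06 and the mutant 10.92, 10.97 and 11.10, and at 5-7 h wild type gave 11.09, 11.40, 11.22 and 11.15 and the mutant 10.92, 7.44, 10.11 and 10.79. Every mutant sample was thus below every wild-type sample of its age. The RA row of smg was lower as well, by 2.18 in means at 1-3 h, but was higher in somatic cells than in PGCs (by 0.62) and so failed the rule.

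The RB row entered on the strength of 1 somatic sample. Somatic replicates 1, 3 and 4 gave 13.78, 13.62 and 13.28 and replicate 2 gave 8.94, and without replicate 2 the somatic mean was above that of PGCs and the row left the set. CG31522 had the same pattern, with 12.96, 13.09 and 13.75 in somatic replicates 1, 3 and 4 and 4.39 in replicate 2. Both rows were also lowest in mutant replicate 1 at 1-3 h (8.97 and 5.75) and in mutant replicate 2 at 5-7 h (7.44 and 4.04). For CG31522 the other 2 mutant samples at 1-3 h were 10.93 and 10.69, not far under the wild-type range of 11.39 to 11.72, and without replicate 1 it left the set, as did Exn. The other 29 members all stayed when somatic replicate 2 was left out.

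The lower signal was still present 2 hours later in samples that the rule had not used. At 3-5 h 18 of the 31 members were called lower in smg PGCs by limma and none was called higher. At an unadjusted p under 0.05 there were 25 members, a measure not counted over all rows. Of all rows 7.83% were called lower and 8.77% higher, and of the comparison rows 290 and 452 of 3690. The median difference of the members was -1.34, against 0.06 for the comparison rows and 0.01 for all rows. In 22 members every mutant sample was below every wild-type sample, as in 19.0% of all rows, and in none were they all above. When all 7 groups shared 1 estimate of the spread, the calls came to 12, as dpr6, RapGAP1 RA, smg, wit, CG13675 and CG10962 no longer passed. Gagr lost its call when any 1 sample other than mutant replicate 1 was left out, and RapGAP1 RA without mutant replicate 1, wild-type replicate 2 or wild-type replicate 4, so that 16 to 18 members were called. The dyes differed between the genotypes at this age by the labels. The somatic markers had a lower mean in the mutant but for sna (9.70 against 8.24), with a log2 summed signal of 10.29 to 11.37 against 12.86 to 13.52 and a median over the 7 that overlapped (6.36 to 8.09 against 7.53 to 8.81). Of these markers zen (12.36 against 8.95 at 3-5 h) and the member tll were at 1-3 h also higher in wild-type PGCs than in somatic cells, zen by means of 11.13 against 10.73. The part of dye or markers in the calls was not tested.

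The members with the largest differences at 3-5 h were largely those of the earlier age. CG4408 was 13.18, 13.03, 13.38 and 13.09 in wild-type PGCs and 8.86, 8.18 and 6.98 in mutant PGCs, a 35.9-fold lower signal (log2 difference -5.16 ± 0.40, SE; limma with Benjamini-Hochberg adjustment, adjusted p = 0.000209). For ana the values were 12.84, 13.07, 13.39 and 12.98 against 7.88, 8.93 and 7.75 (-4.89 ± 0.30, limma adjusted p = 0.000107). Both genotypes had more ana than at 1-3 h, and the gap between them remained 29.6-fold. Cyp12c1 was 9.46, 9.69, 8.89 and 9.90 against 4.57, 5.40 and 4.61 (limma adjusted p = 0.000113), with the mutant mean still at control level, so that the signal was at least 13.1-fold lower. ms(3)76Ba gave 11.26, 11.28, 11.17 and 11.39 against 6.73, 6.51 and 6.71 (-4.63 ± 0.13, limma adjusted p = 1.48e-05).

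In 4 members the genotypes were further apart at 3-5 h than at 1-3 h, and 2 of these were tll and nullo, the members on the list of early zygotic genes. tll gave 12.78, 12.87, 12.83 and 12.62 in wild-type PGCs and 8.80, 9.12 and 8.72 in mutant PGCs, a 14.9-fold difference (-3.89 ± 0.15, limma adjusted p = 2.84e-05). nullo gave 11.54, 10.92, 10.80 and 10.17 against 6.71, 6.87 and 7.41 (-3.86 ± 0.33, limma adjusted p = 0.000273). Neither range came within 2 units of the other. The 2 others were CG17283 (-4.16 ± 0.25, limma adjusted p = 0.000102) and CG31626 (-3.30 ± 0.54, limma adjusted p = 0.00341), and in CG17283 the wild-type samples lay between 10.83 and 11.54 and the mutant ones between 6.64 and 7.50.

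Other members differed little at this age. The difference was -0.64 ± 0.13 for Mnt RB, -0.45 ± 0.13 for Mnt RC and -0.60 ± 0.16 for gem, all under the 2-fold limit although their adjusted p in limma (0.00975, 0.0327 and 0.0238) was below 0.05. For mnt the paper's in situ images show a decrease in wild type by this age and persistence at a high level in the mutant. On the array the mutant means were below wild type at both ages. From the earlier age to this one the Mnt RB mean went from 13.37 to 11.48 in wild type. In the mutant it went from 9.58 to 10.84. For Mnt RC the means went from 14.42 to 14.25 and from 11.78 to 13.80. The RapGAP1 rows were at -1.01 ± 0.26 and -0.99 ± 0.22, one just past the fold limit and the other just short of it. CG43689, with wild-type samples at 9.48, 7.98, 9.21 and 10.20 and mutant samples at 9.40, 9.40 and 8.41, did not pass (-0.15 ± 0.51, limma adjusted p = 0.858). For nAChRalpha3 the mutant samples were spread from 6.39 to 10.17 and the difference of -2.28 ± 0.88 missed the threshold (limma adjusted p = 0.0878). Neither fus (-0.03 ± 0.42, limma adjusted p = 0.963) nor Exn (0.57 ± 0.39, limma adjusted p = 0.315), the one member with a higher mutant mean, passed.

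**Figure D3:**
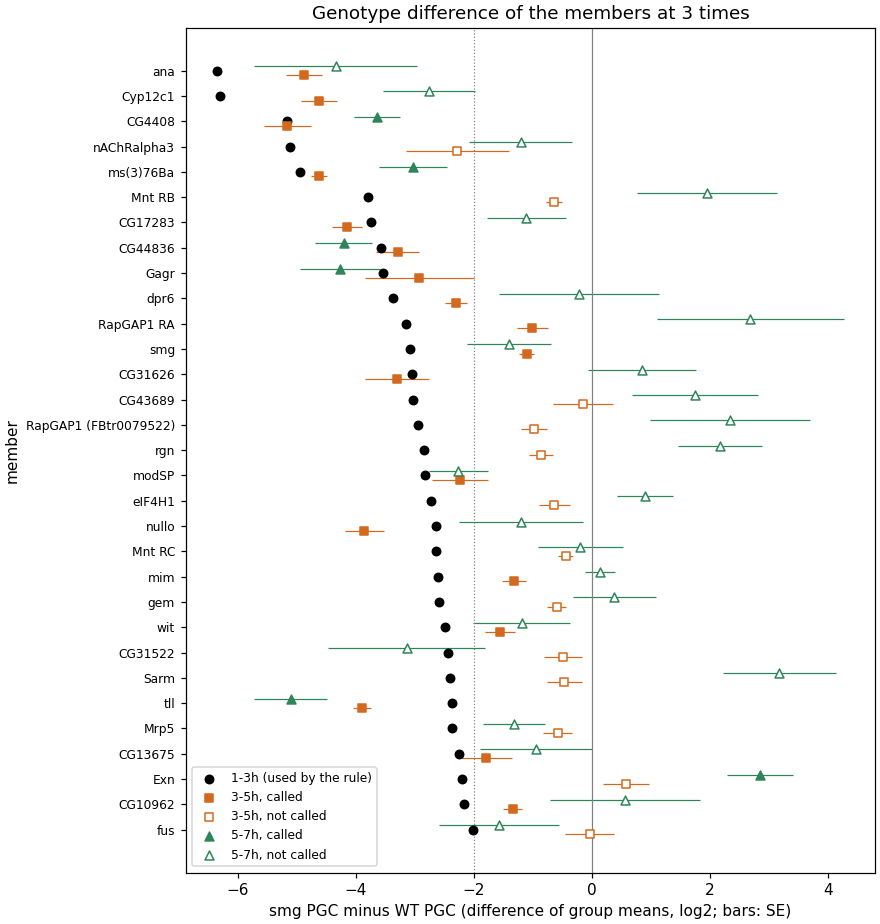
Difference of group means, smg PGC minus wild-type PGC in log2 units (x axis), for the 31 members (y axis) at 1-3 h (black, the values that chose the members), 3-5 h (squares) and 5-7 h (triangles), with bars of 1 SE at the later ages and filled symbols for members called by limma. At 3-5 h 18 symbols are filled, all left of 0. At 5-7 h 5 are filled on the left and 1, Exn, on the right.

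At 5-7 h the members spread out. With all samples 5 members were called lower (CG4408, ms(3)76Ba, CG44836, Gagr and tll) and 1 higher (Exn), where 0.993% and 1.50% of all rows were. Their median was -1.11, against 0.42 for the comparison rows and 0.03 for all rows. An unadjusted p under 0.05 was found for 13 members and was not counted over all rows. The mutant samples were all lower in 7 members and all higher in 3, as in 6.96% and 9.39% of all rows, and without wild-type replicates 3 and 4 in 16 and 3, as in 15.9% and 17.1%. Much of the spread came from the wild-type samples: replicate 3 was the lowest of the 4 in 19 members, replicates 3 and 4 were both below 1 and 2 in 12, and the median SD of a member was 1.63 in this group, against 0.34 in wild-type PGCs at 3-5 h and 0.57 over all rows in the same samples. The order of the replicates was not counted over all rows. Without replicates 3 and 4 the calls were 9 lower, where 2.39% of all rows were, with ana, Cyp12c1, nullo and wit added to the 5, and 2 higher, where 2.44% were, with rgn added to Exn.

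With all samples the largest difference among the members at this age was that of tll, and without replicates 3 and 4 that of ana. For tll wild-type PGCs gave 12.55, 12.03, 10.97 and 11.84 and mutant PGCs 5.24, 6.48, 7.00 and 8.22, so that no mutant sample came within 2 units of wild type (-5.11 ± 0.62, 34.5-fold, limma adjusted p = 0.0083; -5.55 without replicates 3 and 4). CG4408 gave 11.47, 11.00, 12.66 and 11.11 against 7.60 to 8.30 (-3.65 ± 0.39, limma adjusted p = 0.0053). ms(3)76Ba gave 9.23, 10.01, 7.40 and 9.27 against 5.38, 5.87, 5.64 and 6.89 (-3.03 ± 0.57, limma adjusted p = 0.0383). It lost its call when any 1 sample other than wild-type replicate 3 was left out.

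CG44836 and Gagr, which lie next to each other on arm 3L with no protein-coding gene between their starts in the RefSeq table, behaved alike. CG44836 gave 8.25, 8.23, 10.18 and 9.45 in wild-type PGCs and 5.42, 4.75, 4.23 and 4.85 in mutant PGCs (limma adjusted p = 0.00703). Gagr gave 8.01, 8.55, 7.88 and 11.08 against 4.26, 4.33, 4.92 and 4.92 (limma adjusted p = 0.0224). Both mutant means were at control level, so the signals were at least 17.9-fold and 16.2-fold lower. Gagr lost its call when any 1 mutant sample was left out. The 2 genes overlap in that table, so that signal of one could be read as that of the other.

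For ana the 4 wild-type samples at 5-7 h were 12.45, 12.99, 6.17 and 12.05 and the mutant samples 6.95, 7.18, 6.13 and 6.03. Replicate 3 alone was at the mutant level, and the difference of -4.34 ± 1.38 did not pass (limma adjusted p = 0.129), whereas without replicates 3 and 4 it was -6.15 and passed (limma adjusted p = 0.00153). Cyp12c1 showed the same, with 8.02, 8.02, 4.62 and 8.35 against 4.06 to 4.79, at control level, and passed without the 2 samples (limma adjusted p = 0.00233) but not with them (limma adjusted p = 0.101). Replicate 4 had raised somatic markers too, and gave 12.05 for ana and 8.35 for Cyp12c1. The part of the somatic markers in these values was not tested.

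Exn was the one member on the opposite side at 5-7 h by the test. It gave 6.92, 6.96, 5.17 and 7.15 in wild-type PGCs and 8.38, 9.76, 9.07 and 10.38 in mutant PGCs, 7.21-fold more (2.85 ± 0.56, limma adjusted p = 0.0434), and the ranges did not overlap. The call was narrow, since it was lost when any 1 sample other than wild-type replicate 3 was left out, though the difference without replicates 3 and 4 was still 2.46 (limma adjusted p = 0.0477). A second Exn row had means of 6.16 in wild type and 9.22 in the mutant at this age. It was not a member, with a wild-type mean of 9.66 and a difference of -1.33 at 1-3 h. For Sarm the values were 9.12, 10.10, 5.15 and 7.15 against 10.97, 11.18, 10.60 and 11.49, for rgn 10.58, 10.76, 7.28 and 10.21 against 11.79 to 11.99, and neither passed with all samples (limma adjusted p = 0.115 and 0.139).

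The apparent excess of RapGAP1 in the mutant at 5-7 h rested on 2 samples. RapGAP1 RA gave 10.08, 11.98, 4.39 and 5.47 in wild type and 9.76, 11.43, 10.24 and 11.25 in the mutant, a difference of 2.69 ± 1.59 that did not pass (limma adjusted p = 0.35), and without replicates 3 and 4 the difference was -0.36. The other RapGAP1 row went from 2.35 to -0.20 in the same way. CG31626 and CG10962 too had a higher mutant mean with all samples and a lower one without the 2, and fus the reverse. The mutant mean was higher in 12 members with all samples and in 9 without replicates 3 and 4. With all samples it was higher in 8599 of all 16623 rows and in 2748 of the 3690 comparison rows. Without replicates 3 and 4 the other rows were not counted.

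**Figure D4:**
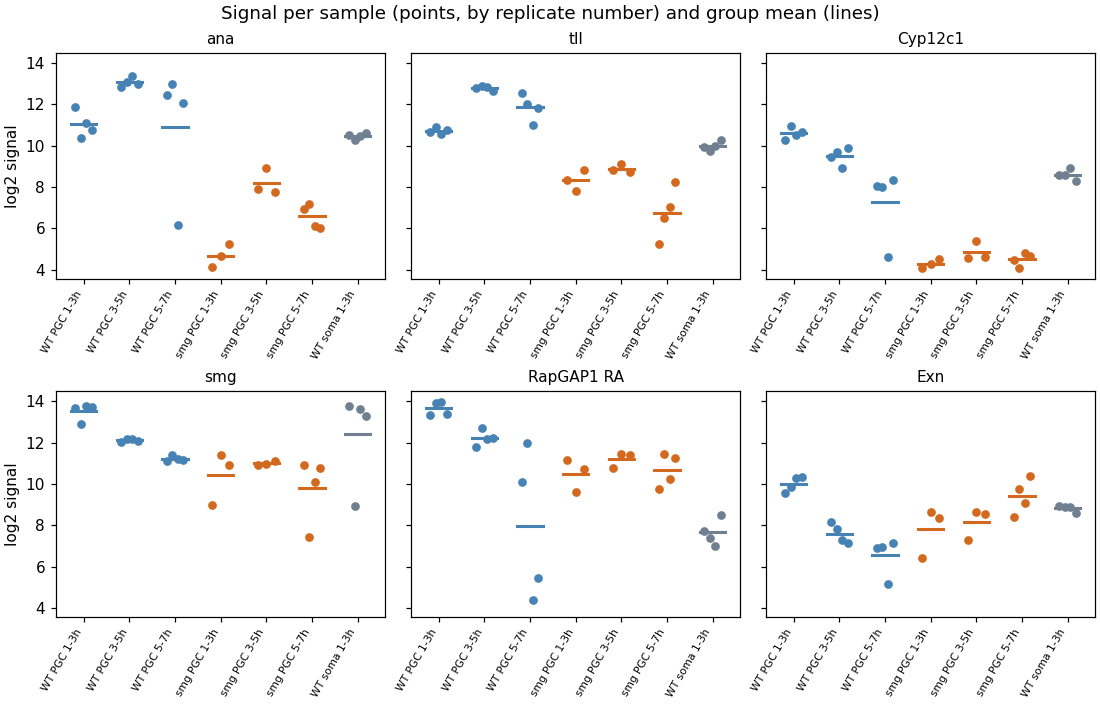
Log2 signal per sample (points, replicates from left to right within each group) and group mean (lines) of 6 members in the 7 groups. The means of ana, tll and Cyp12c1 are below wild type in smg PGCs at all 3 ages, although that of ana in smg PGCs goes from 4.66 at 1-3 h to 8.19 at 3-5 h. RapGAP1 RA drops to 4.39 and 5.47 only in replicates 3 and 4 of wild-type PGCs at 5-7 h. Exn is between 8.38 and 10.38 in the mutant at 5-7 h against 7.15 or less in wild type.

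The courses over time can be set side by side. From 1-3 to 3-5 h, a change that shares its first samples with the rule and is therefore only described, the mean was higher in 26 members in mutant PGCs and in 9 in wild-type PGCs, with median changes of 0.58 and -0.39. Of all 16623 rows 8005 were higher in mutant and 7947 in wild-type PGCs, and of the 3690 comparison rows 1276 and 1134. The comparison rows had medians of -0.19 and -0.29. The wild-type rows that were higher at 3-5 h were ana, CG4408, nAChRalpha3, ms(3)76Ba, CG17283, CG31626, eIF4H1, tll and CG13675, by up to 2.07 (tll), and the 5 mutant rows that were not higher were dpr6, modSP, nullo, Mrp5 and fus. ana was higher by 3.52 in the mutant and by 2.05 in wild type. The mean of 18 members was lower at each later age in wild-type PGCs, and of 19 without replicates 3 and 4 of 5-7 h. A like count over all rows was not made.

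From 3-5 to 5-7 h the samples are independent of the rule. In wild-type PGCs 4 members fell (ms(3)76Ba, CG17283, eIF4H1 and CG13675, 1.52% of all rows) and none rose (1.43%). There were 21 members at an unadjusted p under 0.05, a measure not counted over all rows. The median change was -2.11, against -0.37 for the comparison rows. CG17283 fell most among them, from 10.83 to 11.54 at the earlier age to 5.83, 8.44, 6.67 and 5.38 (-4.65 ± 0.61, limma adjusted p = 0.0253). None of these 4 calls was made when any 1 wild-type sample of 3-5 h was left out, and without replicates 3 and 4 of the later age the median change was -1.06 with 10 members called lower and 1, Mrp5, higher (3.25% and 4.38% of all rows).

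In mutant PGCs 5 members fell over the same interval (ana, CG17283, CG44836, tll and CG13675) and 1 rose (CG31626, by 1.48 ± 0.36, limma adjusted p = 0.0274), where 6.25% and 6.03% of all rows did, and the median change was -0.70. CG44836 fell by 2.22 (± 0.33, limma adjusted p = 0.00624). By the labels the dye changed between these 2 groups, from Cy3 to Cy5. A difference between the genotypes in this change was called for 1 member, mim (1.45 ± 0.33, limma interaction contrast, adjusted p = 0.0316), where 1.60% of all rows were called in that direction and 1.55% in the other. At an unadjusted p under 0.05 there were 9 members, and all rows were not counted in this way. mim went from 12.74, 12.70, 12.11 and 12.48 to 11.76, 11.95, 12.18 and 11.40 in wild type and from 11.44, 11.09 and 11.03 to 11.71, 11.84, 11.90 and 12.38 in the mutant, so the genotypes were separated at the earlier age and overlapped at the later one. Without wild-type replicates 3 and 4 at 5-7 h the calls were mim, rgn and Sarm (3.22% of all rows) with none in the other direction (3.45%). The mim call was lost without replicate 1, 2 or 4 of wild-type PGCs at 3-5 h, without any 1 mutant sample of that age, and without mutant replicate 3 or 4 at 5-7 h.

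Rows given to the same gene by current symbols did not always move together. CG10962 RB was a member (12.64 in wild-type and 10.47 in mutant PGCs at 1-3 h), whereas the RA row of that gene had 12.94 and 12.70, a difference of -0.24. Of the 4 named RapGAP1 rows the 2 members were at -3.16 and -2.94, and the 2 others at -1.38 (FBtr0091494) and -0.57 (RG). The RG row had a higher mutant mean at 3-5 h, by 1.14. In the study's lists that row stands under CG34374 and the 2 member rows under CG13790, which current symbols join as RapGAP1. eIF4H1 had -2.73 in its RC row and -1.38 in its RA row, the 2 further Sarm rows were at -1.65 and -0.91, and CG31626 RA, at -2.40, was too low in wild type (8.47) for the rule. The lists likewise give the Sarm member under CG34373 and the Sarm row at -1.65 under CG13681. The second Exn row was at -1.33, against -2.20 for the member. Rows of a gene can share probes, and the probe positions were not used here.

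By the gene order in the RefSeq table (Release 6 plus ISO1 MT) 11 of the 31 members (35.5%) lay on arm 3L, which also carries smg and the deficiency of the mothers, against 19.6% of the 3023 comparison rows with a known arm. Members lay on X (7), 3R (6), 2R (4) and 2L (3) besides. Of the 34 lowered rows that failed the somatic condition, 21 had a known arm, and 9 of these (42.9%) lay on 3L. The shares are a description, and the 3L members include smg itself. Besides CG44836 and Gagr, the closest pairs were Sarm and CG13675, with 17 protein-coding genes between them, and Mnt and CG43689, with 21. The members nearest to smg were CG13675 and dpr6, with 130 and 138 protein-coding genes in between.

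Lists of genes of known function set the members in context. None of the genes with a named row on the lists of germ plasm and germ cell (28 of 31), germline stem cell and meiosis (18 of 18), deadenylation and decay (7 of 14) or glycolysis (10 of 12) was a member, and 2 of the 7 named genes of the 22 on the early zygotic list were, nullo and tll. The members were 31 of 5395 named rows, so their absence from lists this short says little. The 1-3 h contrast chose the members, so list calls are given for the later ages only. At 3-5 h 7.83% of all rows were called lower and 8.77% higher, and 7.86% and 12.25% of the comparison rows. At 5-7 h 0.993% and 1.50% of all rows were, and 2.39% and 2.44% without wild-type replicates 3 and 4. Of the germ plasm and germ cell genes, 11 were called higher in smg PGCs at 3-5 h (osk, which directs germ plasm assembly, among them) and none lower, with a median of 0.85. At 5-7 h 4 were called higher with all samples and 6 without wild-type replicates 3 and 4, none was called lower either way, and the median was 1.51 and 0.45. Of the 7 early zygotic genes 4 were called lower at 3-5 h (nullo, Z600, zen and tll) and sisA higher. At 5-7 h tll was called lower with all samples, nullo, zen and tll were without replicates 3 and 4, and slam was called higher both ways. Since nullo and tll are members, their lower signal is not independent of the choice. Of the deadenylation and decay genes Rga was called lower and Edc3 higher at 3-5 h, and none was called at 5-7 h with or without the 2 samples. Among the glycolysis genes 5 were called higher at 3-5 h, and at 5-7 h 2 with all samples and 5 without the 2. Among the germline stem cell and meiosis genes 4 were called higher and grau lower at 3-5 h, and 3 higher at 5-7 h either way. Row names came from the study's own lists, made from these samples, of transcripts expressed, enriched, falling, constant or rising in PGCs, so which genes carry a name depended on these data and the counts are not independent evidence of a direction.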

How the data were processed

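RNA was amplified, labelled and hybridised to custom NimbleGen arrays. By the methods each array took both a Cy3 and a Cy5 sample, and which samples shared an array is not given in the sources used here. The deposited values are linear intensity values, 1 per transcript, which the authors normalized with RMA (quantile method). The version of the transcript annotation is not given in the sources used here. Intensities were taken as log2 values of the deposited intensity with no further scaling. Control rows and rows of other kinds were set aside, and no value column was left unused. No column of the authors' own comparisons was in the table. The rows carry no gene names. They were paired with names by matching values to the study's gene lists (5395 of 16623 rows), and current symbols came from the RefSeq table, Release 6 plus ISO1 MT.

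Groups were compared with limma 3.58.1 in R 4.3.3, using only the samples compared, on all 16623 rows and with Benjamini-Hochberg adjustment. A call needs an adjusted p of 0.05 or less and a 2-fold difference. The scripts were tested on simulated data. The 12 lowest members at 1-3 h, the 8 most abundant, members on the lists, the 4 highest and 4 lowest at each later age, those at the limits and smg are named by rule, and others to account for every member. The members and lists were chosen with earlier results of these data known. The list of mitochondrial respiration genes was not run, as it needs product annotation not used here. Alternatives were other scalings, all 7 groups in 1 fit, array weights, a filter on dim transcripts, the replicate number as a block and samples left out.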

Additional observations from a re-analysis of the deposited data

Results flagged for a closer look

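In groups of 4 samples, 21 values of members stood far from the other 3 of their group, out of 155 sets examined, and chance alone marks about 1 in 20 groups. Replicate 3 of wild-type PGCs at 5-7 h gave 6 of them, all lowest: ana (6.17 against 12.05 to 12.99), Cyp12c1 (4.62), CG43689 (5.17), rgn (7.28), Exn (5.17) and CG10962 (5.53). The same replicate had raised somatic markers, whose part in these values was not tested. In that group gem stood out as highest in replicate 2 (12.35).

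Somatic replicate 4 gave 5 values, dpr6 (10.81), CG43689 (10.38), RapGAP1 FBtr0079522 (8.54) and modSP (9.40) as highest and Exn (8.61) as lowest. Somatic replicate 2 was lowest for smg (8.94) and CG31522 (4.39), the values on which their place among the members rests.

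In wild-type PGCs at 1-3 h nAChRalpha3 was lowest in replicate 4 (8.41), smg in replicate 2 (12.93), and modSP (9.38) and CG10962 (12.14) in replicate 1, while eIF4H1 was highest in replicate 3 (11.39). In smg PGCs at 5-7 h dpr6 was lowest in replicate 3 (6.21) and wit in replicate 4 (7.94).

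The change of mim from 3-5 to 5-7 h differed between the genotypes by 1.45 log2 units (limma interaction contrast, Benjamini-Hochberg adjusted p = 0.0316).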

How the results depend on the processing

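At 3-5 h 12 to 19 members were called lower under every alternative tried and none higher, and the rule was met by 29 to 41 transcripts, of which 29 to 31 were the members. No difference of a member that was called changed its sign. The counts at later ages moved. For smg against wild type at 5-7 h (5 lower, 1 higher) they were 9 and 3 with all 7 groups in 1 fit, 11 and 2 with array weights, 9 and 2 without wild-type replicates 3 and 4, and 3 to 7 and 0 to 2 with 1 sample left out. For the wild-type change (4 and 0) they were 15 lower with all 7 groups, 10 and 1 with array weights, 10 and 1 without those replicates, and 0 to 9 and 0 to 1 with 1 sample left out. For the mutant change (5 and 1) they were 0 higher with all 7 groups, 3 and 2 with dim transcripts left out, 2 higher with array weights, and 1 to 5 and 0 to 2 with 1 sample left out. For the genotype difference of the change (1 higher) they were 2 after a second quantile normalization, 6 with all 7 groups, 4 without dim transcripts, 5 with array weights, 3 without those replicates, and 0 to 5 with 1 sample left out. The cause was not tested.

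Over all transcripts, calls at 5-7 h were 165 lower and 250 higher, against 1360 and 1554 with all 7 groups, 398 and 406 without those replicates and 31 to 242 and no fewer than 46 with 1 sample left out. The wild-type change had 252 and 238, against 1439 and 1259, 540 and 728, and 0 to 573 and 0 to 451. The genotype difference had 258 and 266, against 645 and 768, 574 and 536, and 85 to 448 and 61 to 534. The mutant change had 1039 lower, against 673 to 1149.

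With the replicate number as a block 18 members were called lower at 3-5 h, 1 lower and 0 higher at 5-7 h, 0 lower in the wild-type change and 0 and 0 in the mutant change, and in the genotype difference mim lost its call and CG17283 gained one, a count of 1. Same-numbered samples of 3-5 and 5-7 h had correlated deviations from -0.11 to 0.22, the highest for replicate 2 of the 2 genotypes at 5-7 h. No pair of 1-3 h was examined. Whether same-numbered samples shared an array or a day was not tested.

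The number of samples, 3 or 4 a group, limits the precision, and signals near that of the control rows give no order.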
